A study of Mus musculus with 18 samples.

Results

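Lysophosphatidic acid (LPA) synthesis, sensing and breakdown was followed through 10 genes in mouse retinal pigment epithelium (RPE), the sheet of pigmented cells that lies against the photoreceptors and clears the outer segments they shed. Enpp2 encodes autotaxin, which makes LPA, Lpar1 to Lpar6 encode the 6 LPA receptors, and Plpp1 to Plpp3 encode 3 phosphatases that break it down. All 10 were found by name, among 55333 named genes in the first deposited table and 55421 in the second, and all 10 passed the filter on low values in both. Enpp2 and Lpar3 were chosen by their lower values in the double-knockout libraries, and the other 8 genes were added to make the receptor and phosphatase families complete. The difference of Enpp2 and Lpar3 in those libraries is therefore a description, given without a test.

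Poly(A) RNA of RPE was sequenced in 18 libraries from untreated mice at postnatal day 25, taken 1 h after the lights came on. The groups of the first table were Mertk-/-V2Tyro3-/-V2 (3 libraries), Tyro3-/-V1 (3) and C57BL/6 (6, genotype C57BL/6J), and those of the second, normalized separately, were Itgb5-/- (3) and WT129 (3). Mertk and Tyro3 encode related receptor tyrosine kinases and Itgb5 an integrin beta chain; both Mertk and the integrin act in the uptake of outer segments. The labels do not say how the alleles V1 and V2 were made, or whether animals were pooled for a library. The replicates are called biological in the labels.

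Autotaxin is a secreted lysophospholipase D that cleaves the choline from lysophosphatidylcholine outside the cell and so releases LPA, and Enpp2 is known as an abundant transcript of RPE and of choroid plexus. LPA then binds G protein-coupled receptors of 2 unrelated families, one holding Lpar1, Lpar2 and Lpar3 and the other, closer to the P2Y purine receptors, holding Lpar4, Lpar5 and Lpar6. The phosphatases encoded by Plpp1, Plpp2 and Plpp3 sit in membranes and remove the phosphate of LPA and related lipids, which ends the signal.

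Libraries held 14135502 to 30401422 reads. The mutated genes were looked at first. Tyro3 fell in the group Mertk-/-V2Tyro3-/-V2 (limma, −1.16 ± 0.12 on the log2 scale, SE; adjusted p = 0.0101) and in Tyro3-/-V1 (−1.55 ± 0.12; adjusted p = 0.000935), and Itgb5 fell in Itgb5-/- (−1.58 ± 0.14; adjusted p = 0.0176). Mertk RNA did not go with the label: its log2 change in Mertk-/-V2Tyro3-/-V2 against C57BL/6 was −0.06 ± 0.19 (limma adjusted p = 0.855). That group is therefore called the libraries labelled double knockout. A count over a whole gene does not show which allele it came from. The RPE markers, 13 of 13 measured, summed to 15337 to 23033 RPM (reads scaled to the same library total) in those libraries, 25520 to 36849 in Tyro3-/-V1 and 21995 to 34428 in C57BL/6, and no marker was at 0. Markers of other cells of the eye were present in every group, among them ocular surface epithelium and lens, with only 1 lens marker at 0 and that in the second table. The first principal component of the first table held 47.3% of the variance, with C57BL/6 replicate 1 and replicate 3 of the libraries labelled double knockout at its ends. C57BL/6 replicates 1 to 3 carry the mark 23 in their sample names, as do all mutant libraries of that table, and replicates 4 to 6 do not. What the mark stands for is not stated.

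Among the reference sequences, RefSeq promoter windows on GRCm38.p6, from 250 bases before to 50 after a transcript start, matched 8 of the 10 genes, with 11 windows; Enpp2 and Plpp1 had no entry. The window of Lpar3, the receptor chosen for its difference, is printed because it is the stretch next to the start of that transcript (chr3:146220711-146221010, plus strand).
Lpar3 promoter: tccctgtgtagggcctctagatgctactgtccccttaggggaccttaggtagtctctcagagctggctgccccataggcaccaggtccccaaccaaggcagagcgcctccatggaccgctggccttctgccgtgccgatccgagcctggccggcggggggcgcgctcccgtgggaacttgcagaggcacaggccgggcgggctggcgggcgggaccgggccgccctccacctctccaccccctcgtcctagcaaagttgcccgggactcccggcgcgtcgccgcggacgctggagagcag
It has 70.3% G and C, against a median of 52.7% over 32851 windows, and holds 25 CpG pairs. Nothing in it is in capitals because none of 3 motifs searched on both strands was found: TAATCC, bound by the photoreceptor and RPE factors CRX and OTX2, and the E-boxes CATGTG and CACGTG, bound by the pigment cell factor MITF. Over all windows, 7.06% held TAATCC, 14.2% held CATGTG and 7.15% held CACGTG. Of the 11 windows of these genes, none held TAATCC, that of Plpp2 held CATGTG at position 43, and that of Lpar2 held CACGTG at −190 and −141, counted from the transcript start. A match is a stretch of letters and not a binding site.

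Enpp2 (ENSMUSG00000022425, GRCm38 chr15:54838901-54952892, minus strand) stood far above the other 9 genes in every group. Per length, in RPM divided by the kilobases of merged exons (RPKM), its level was 307 ± 67 in the libraries labelled double knockout (SD, n = 3), 679 ± 156 in Tyro3-/-V1 (n = 3) and 654 ± 63 in C57BL/6 (n = 6). It was 307 ± 39 in Itgb5-/- and 278 ± 40 in WT129 (SD, n = 3 each). Ranked by reads among all genes of a library, Enpp2 was 23rd to 46th in the libraries labelled double knockout, 9th to 17th in Tyro3-/-V1, 10th to 15th in C57BL/6, 32nd to 43rd in Itgb5-/- and 37th to 43rd in WT129. No range of Enpp2 overlapped that of the gene next below it in any group.

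In normalized counts, Enpp2 had 38611, 56261 and 38427 in the libraries labelled double knockout, against 79591, 103527 and 124651 in Tyro3-/-V1 and 88055, 96249 and 121105 as the lowest, median and highest of C57BL/6. All 3 libraries labelled double knockout lay below every other library of the first table, and Tyro3-/-V1 overlapped C57BL/6. Their mean was 42.6% of that of the C57BL/6 libraries with the mark and 47.5% of that of those without it, so the difference was of like size against both control sets. The fitted log2 fold change was −1.24 ± 0.20 (SE) against C57BL/6 and −1.21 ± 0.20 against Tyro3-/-V1. With C57BL/6 replicate 1 and the third of the libraries labelled double knockout left out, it was −1.15 against C57BL/6. The span of Enpp2 overlaps that of the noncoding gene Gm26684 on the opposite strand. Whether their exons overlap was not looked at. Without a stated strand of counting, reads from a shared exon stretch, if any, could not be told apart.

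RPE marker transcripts were measured beside Enpp2. Of 13 RPE markers, 1 fell in the libraries labelled double knockout against C57BL/6, where 0.523% of all 19711 genes passed the limma test in either direction. It was Rpe65, the retinoid isomerase of the visual cycle (log2 fold change −1.53 ± 0.22, limma adjusted p = 0.0268). The summed RPE markers of the libraries labelled double knockout lay below those of C57BL/6 with the mark (26055 to 34428 RPM). They overlapped those without it (21995 to 26837 RPM). Of the 13 markers, 11 had a negative log2 fold change, with a median of −0.69 against 0.01 over all genes tested. At an unadjusted p below 0.05 by limma, 10 of 13 were lower, where 21.9% of all genes passed in either direction. Lens markers summed to 7030 to 30605 RPM in the libraries labelled double knockout and 778 to 6669 in C57BL/6. Inner retinal neuron markers summed to 1306 to 1846 in the libraries labelled double knockout. They came to 833 to 1273 in C57BL/6 with the mark and 1379 to 1839 in those without it. In both lists 10 of 10 markers had a positive log2 fold change, 0 passing the limma test. Of 12 microglia and macrophage markers, 11 had a positive log2 fold change, with a median of 0.68, and 2 rose, C1qc, a complement subunit (0.93 ± 0.17, SE; limma adjusted p = 0.0459), and Ctss, a lysosomal protease (0.78 ± 0.13; adjusted p = 0.0352). Their sum was 333 to 437 RPM in the libraries labelled double knockout and 358 to 467 in C57BL/6, which overlapped, with none at 0. Set against the summed RPE markers of the same library, Enpp2 came to 9.14% to 10.3% in the libraries labelled double knockout, 11.6% to 14.1% in Tyro3-/-V1 and 11.3% to 16.7% in C57BL/6. The libraries labelled double knockout lay below the other libraries of the first table on this scale too, by less than in normalized counts. The scale holds the Enpp2 values by which the gene was chosen, so this is a description. In bulk tissue, fewer RPE cells and less RNA per RPE cell cannot be told apart, and the part of the other cell types in the Enpp2 difference was not tested.

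**Figure D1:**
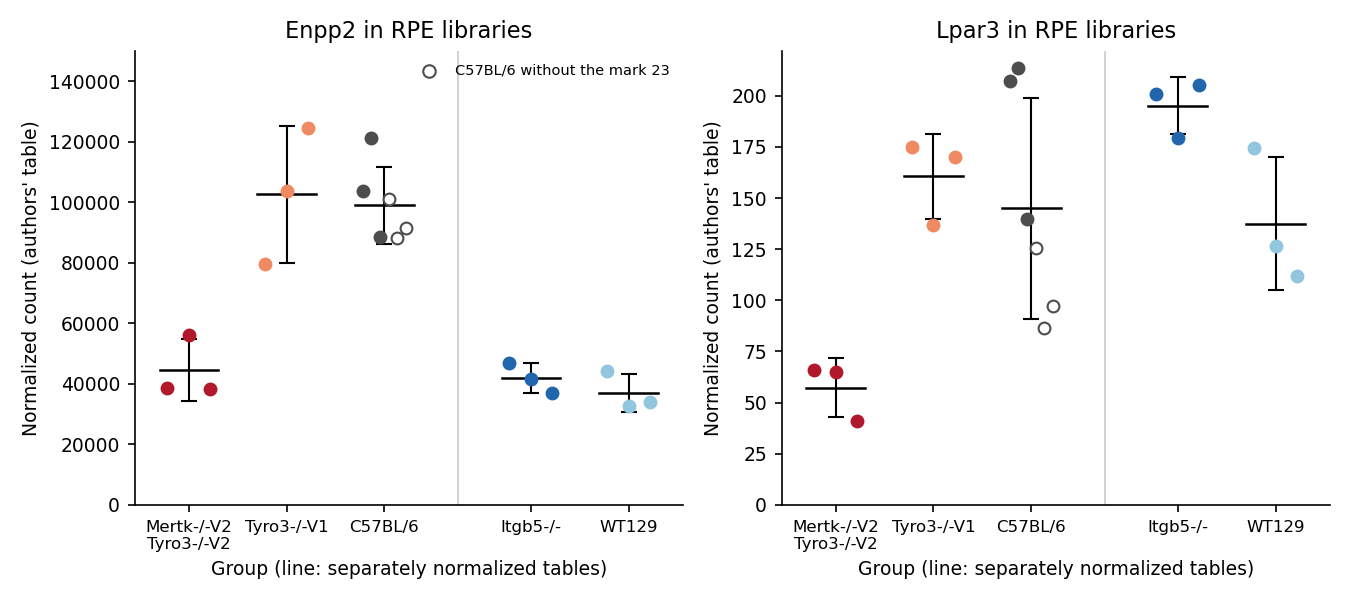
Normalized counts of Enpp2 (left) and Lpar3 (right) in each library, by group, with the mean (bar) and SD (whiskers); open circles are C57BL/6 libraries without the mark 23, and the grey line parts tables that were normalized separately. The libraries labelled Mertk-/-V2Tyro3-/-V2 lie at 38427 to 56261 for Enpp2 and 40.9 to 66.1 for Lpar3, below all other libraries of their table.

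Lpar3 (ENSMUSG00000036832, GRCm38 chr3:146220963-146286186, plus strand), a receptor of the Lpar1 family, was low in all groups. It had 66.1, 65.2 and 40.9 normalized counts in the libraries labelled double knockout, resting on 66, 78 and 48 reads. The values were 175, 137 and 170 in Tyro3-/-V1, and 86.5, 133 and 213 as the lowest, median and highest of C57BL/6. The libraries labelled double knockout again lay below every other library of the table. Their mean was 30.7% of the C57BL/6 mean with the mark and 55.6% of that without it, so the size depended on the control set, since the C57BL/6 libraries without the mark were themselves at 0.553 times those with it and did not overlap them. The fitted log2 fold change, which compares with the marked controls, was −1.69 ± 0.25 (SE) against C57BL/6, −1.49 ± 0.25 against Tyro3-/-V1, and −1.38 against C57BL/6 with the same pair of libraries left out.

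The share of Lpar3 among the receptor transcripts follows from the values by which it was chosen and is given as a description. Per length, Lpar3 made up 5.41% to 6.36% of the summed level of the 6 receptors in the libraries labelled double knockout, 11.8% to 14.6% in Tyro3-/-V1 and 9.81% to 17.6% in C57BL/6. It was last of the 10 genes in the libraries labelled double knockout, at 0.927 ± 0.211 RPKM, below Lpar4 without overlap, and it came after Lpar1 and Lpar5 among the receptors in Tyro3-/-V1 (2.48 ± 0.28) and C57BL/6 (2.22 ± 0.70; SD, n = 3, 3 and 6), where its range overlapped those of its neighbours. The summed level of the 6 receptors was 12.6 to 17.0 in the libraries labelled double knockout, 18.1 to 19.8 in Tyro3-/-V1 and 13.9 to 19.2 in C57BL/6. The first of these ranges lay below that of Tyro3-/-V1 and overlapped that of C57BL/6.

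**Figure D2:**
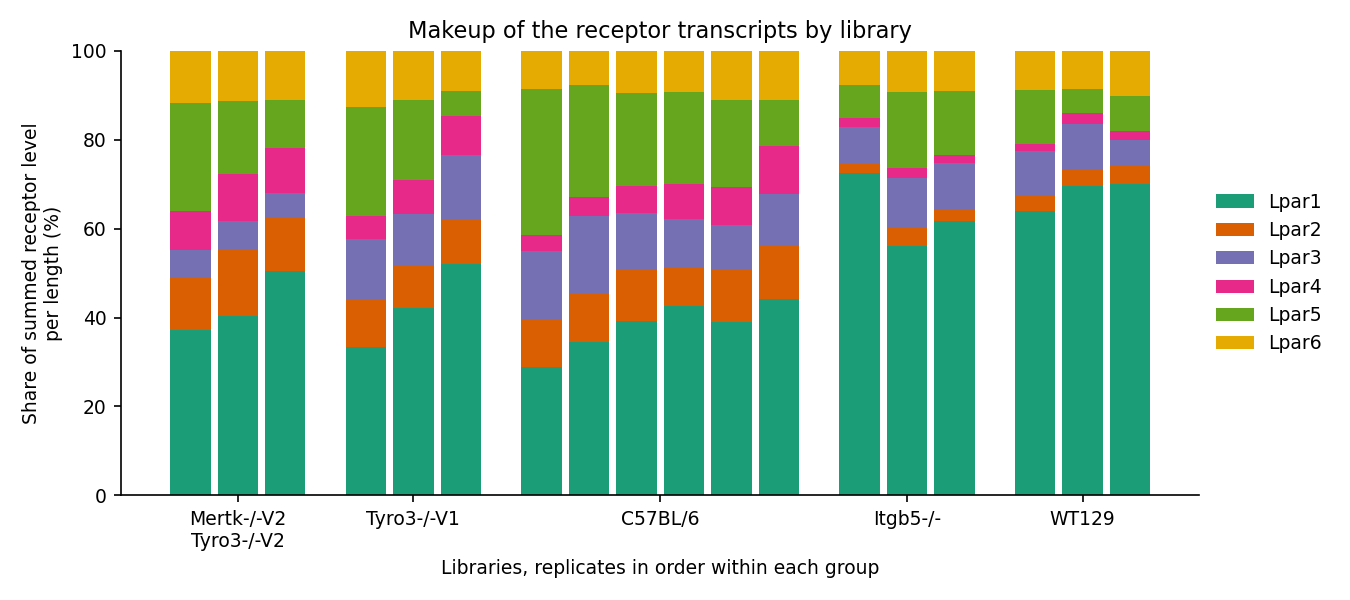
Share of each of the 6 receptors in their summed level per length (percent), one bar per library with replicates in order within a group. Lpar3 takes 5.41% to 6.36% in Mertk-/-V2Tyro3-/-V2, and Lpar1 takes 56.1% to 72.6% in Itgb5-/- and 64.1% to 69.9% in WT129.

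The other 8 genes were tested in the libraries labelled double knockout against C57BL/6, and 0 of 8 passed the limma test at an adjusted p of 0.05, where 0.523% of all 19711 genes did. At an unadjusted p below 0.05, 3 of the 8 passed, Lpar4, Plpp2 and Plpp3, and so did 4324 of all genes, or 21.9%. By edgeR, which called 0.614% of all genes, 0 of 8 passed, and by DESeq2 2 of 8, Lpar4 and Plpp3, both higher; DESeq2 called 8.75% of all genes. With all 6 controls, none of the 8 was without overlap between the groups, against 5.83% of all genes; the 2 of the 10 that were are the chosen Enpp2 and Lpar3.

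Lpar1 (GRCm38 chr4:58435255-58553898, minus strand), the receptor of widest known distribution, led the receptors by mean level per length in every group. The next receptor was Lpar6 in WT129 and Lpar5 in the other groups. Only in C57BL/6 did the range of Lpar1 overlap that of the next receptor. It had 688, 718 and 663 normalized counts in the libraries labelled double knockout, against 757, 851 and 1055 in Tyro3-/-V1 and 598, 698 and 842 as the lowest, median and highest of C57BL/6. The libraries labelled double knockout lay within the C57BL/6 range and below Tyro3-/-V1. The log2 fold change against C57BL/6 was −0.05 (95% interval −0.37 to 0.27, limma adjusted p = 0.839), and against Tyro3-/-V1 it was −0.35 (adjusted p = 0.332).

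Lpar2 (chr8:69822429-69831102, plus strand), of the same family, had 297, 368 and 217 normalized counts in the libraries labelled double knockout and 226, 279 and 336 as the lowest, median and highest of C57BL/6. The groups overlapped, and the log2 fold change was −0.14 (interval −0.54 to 0.25, limma adjusted p = 0.639). Its sign turned when the mark was left out of the model (0.067), so no direction is given. Lpar6 (chr14:73237895-73243294, plus strand), of the P2Y-like family, had 275, 251 and 184 normalized counts, against 201, 223 and 250 in the same order for C57BL/6, and a log2 fold change of 0.03 with an interval of −0.39 to 0.45 (adjusted p = 0.935). Lpar6 lies within the span of Rb1, on the opposite strand. Only spans were compared, not exons. Without a stated strand of counting, reads from any stretch held by exons of both could not be told apart.

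Lpar4 (chrX:106920625-106933900, plus strand), a P2Y-like receptor known for its part in blood vessel development, had 159, 186 and 130 normalized counts in the libraries labelled double knockout. C57BL/6 had 82.1, 122 and 157 as its lowest, median and highest. The fitted log2 difference was 0.74 ± 0.21 (SE), with an adjusted p of 0.113 by limma and 0.0205 by DESeq2. The 3 libraries lay above the C57BL/6 libraries with the mark, at 1.68 times their mean, and overlapped those without it, at 1.08 times. Beside it, 10 of 10 endothelial markers had a positive log2 fold change, with a median of 0.72 and 0 passing the limma test. Their sum was 290 to 331 RPM in the libraries labelled double knockout. It was 132 to 224 in C57BL/6 with the mark, all lower, and 240 to 414 in those without it, which overlapped. None of these markers was at 0. Their part in the Lpar4 value was not tested.

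Lpar5 (chr6:125067920-125082472, plus strand), a P2Y-like receptor coupled to G12/13 and Gq proteins, was the most uneven receptor. It had 159, 104 and 50.2 normalized counts in the libraries labelled double knockout, 198, 129 and 39.6 in Tyro3-/-V1, and 53.4, 143 and 270 as the lowest, median and highest of C57BL/6. The groups overlapped, and the log2 fold change against C57BL/6 of −1.03 had an interval of −2.39 to 0.33 (limma adjusted p = 0.324). Ocular surface epithelium markers, 10 of 10 measured, summed to 12342, 6041 and 2200 RPM in the same libraries labelled double knockout, 13589, 8988 and 3328 in Tyro3-/-V1, and 3458 to 15302 in C57BL/6, with none at 0. The libraries high in these markers were those high in Lpar5 within both mutant groups. In both groups Lpar5 and the markers fell in order from replicate 1 to replicate 3. Whether same-numbered libraries shared an effect on both was not tested.

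Among the phosphatases, Plpp1 (chr13:112800792-112867894, plus strand) had 652, 462 and 339 normalized counts in the libraries labelled double knockout and 369, 533 and 761 as the lowest, median and highest of C57BL/6, which overlapped (log2 fold change −0.21, interval −0.86 to 0.44, limma adjusted p = 0.681). The span of Plpp1 overlaps that of Mtrex on the opposite strand, and reads from a shared exon stretch, if any, could not be told apart. Plpp2 (chr10:79526430-79533796, minus strand), a relative with a more restricted known expression, had 1530, 933 and 576, against 870, 1468 and 2040 in the same order for C57BL/6. The fitted log2 difference was −0.92 ± 0.38 (SE, adjusted p = 0.204 by limma), with the 3 libraries below the C57BL/6 libraries with the mark, at 56.9% of their mean, and at 97.1% of those without it. Plpp2 ran beside the ocular surface markers in the same order of libraries as Lpar5, in both mutant groups, falling from replicate 1 to replicate 3. The order did not hold for Plpp2 in WT129, where it was lowest, at 817, in the library with 13124 RPM of these markers and had 1044 in the one with 5207. The part of those cells in either gene was not tested.

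**Figure D3:**
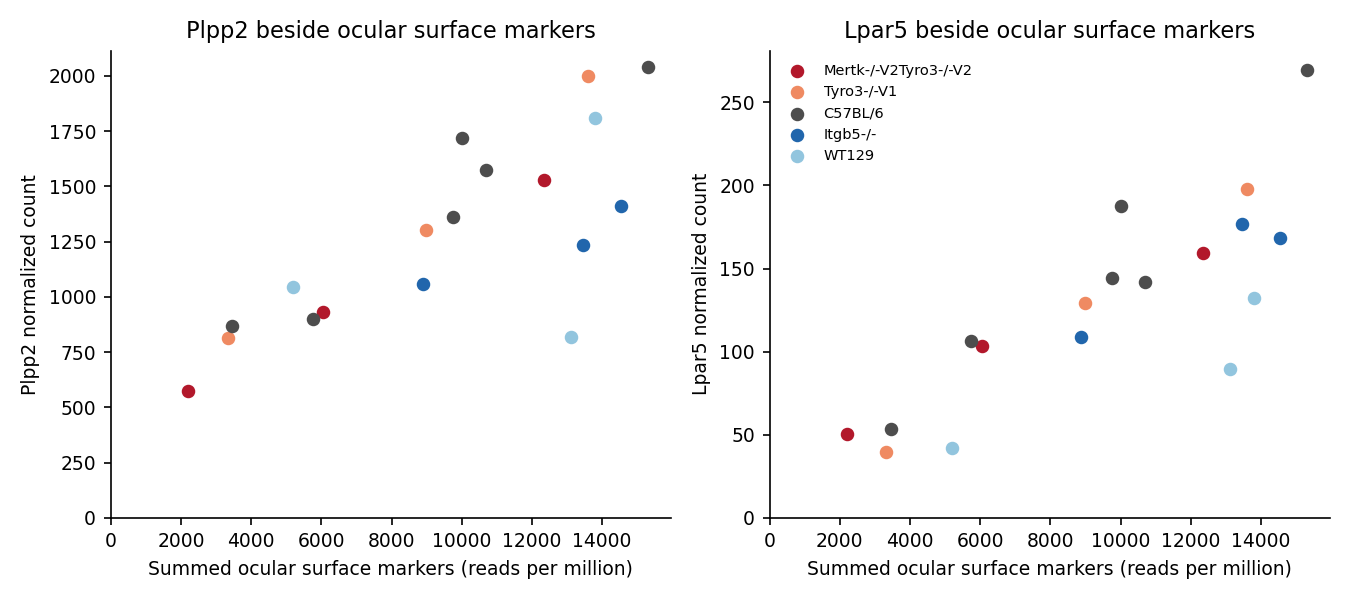
Normalized counts of Plpp2 (left) and Lpar5 (right) against the summed ocular surface markers of the same library in RPM, one point per library, colour for group. Within each mutant group of the first table, Plpp2 and Lpar5 are lowest where the markers are lowest, as at 2200 RPM among the Mertk-/-V2Tyro3-/-V2 libraries. In WT129 Plpp2 is lowest, at 817, where the markers stand at 13124 RPM. The points of the second table are on a separately normalized scale.

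Plpp3 (chr4:105157347-105232764, plus strand), the phosphatase known from mouse knockouts to be needed for embryonic vessel formation, had 2067, 2037 and 2277 normalized counts in the libraries labelled double knockout. C57BL/6 had 1379, 1665 and 2127 as its lowest, median and highest. The fitted log2 difference was 0.54 ± 0.13 (SE), with an adjusted p of 0.0857 by limma and 0.00903 by DESeq2. As for Lpar4, the libraries lay above the marked controls, at 1.46 times their mean, and overlapped the unmarked ones, at 1.07 times. Fibroblast and mural markers, 10 of 10 measured, summed to 1588 to 1869 RPM in the libraries labelled double knockout. They summed to 1034 to 1497 in C57BL/6 with the mark and 1405 to 1677 in those without it, and their part was not tested. Per length, the 3 phosphatases together came to 52.0 to 76.7 in the libraries labelled double knockout, 57.3 to 80.9 in Tyro3-/-V1 and 57.9 to 74.8 in C57BL/6, ranges that overlapped.

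**Figure D4:**
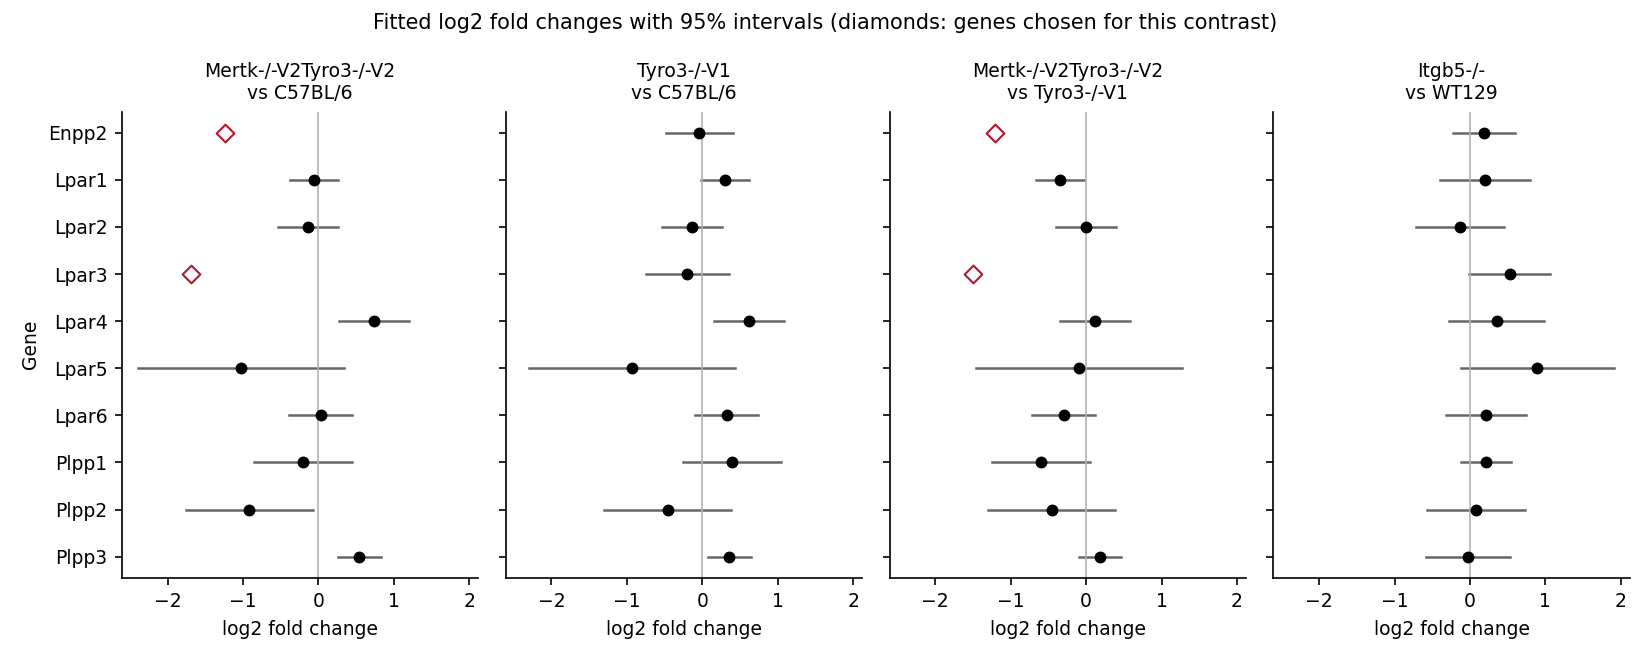
Fitted log2 fold changes (x axis) of the 10 genes (rows) in 4 comparisons (panels), with 95% intervals; open diamonds mark Enpp2 and Lpar3 where the libraries labelled Mertk-/-V2Tyro3-/-V2 were used to choose them, shown without an interval. Lpar4 and Plpp3 lie at 0.74 and 0.54 in the first panel, and Lpar3 at 0.53 in the panel of Itgb5-/- against WT129.

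Loss of Tyro3 alone gave no call among these genes. In Tyro3-/-V1 against C57BL/6, 0 of 10 passed the limma test, where 0.0457% of all genes did, 2 passed at an unadjusted p below 0.05 (Lpar4 and Plpp3), as did 6.71% of all genes, and 0 passed by edgeR or DESeq2, which called 0.0457% and 0.665% of all genes. None of the 10 was without overlap between the groups, against 4.05% of all genes. Enpp2 had a log2 fold change of −0.04 (95% interval −0.48 to 0.41, limma adjusted p = 0.991), and Lpar3 of −0.20 with an interval of −0.75 to 0.35 (adjusted p = 0.965). Both signs turned without the term for the mark, at 0.038 for Enpp2 and 0.22 for Lpar3. Lpar4 had 115, 151 and 174 normalized counts in Tyro3-/-V1, a log2 fold change of 0.62 ± 0.21 (adjusted p = 0.583), and Plpp3 had 1532, 1981 and 2148, a log2 fold change of 0.36 ± 0.13 (adjusted p = 0.622). These values use the same C57BL/6 libraries as those of the libraries labelled double knockout. Here too the size depended on the control set. Against C57BL/6 with the mark, the Tyro3-/-V1 mean was 1.55 times for Lpar4 and 1.29 times for Plpp3. Against those without it, the mean was 0.999 times for Lpar4 and 0.953 times for Plpp3, with overlap.

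Between the mutant groups, the libraries labelled double knockout against Tyro3-/-V1, 0 of the 8 tested genes passed the limma test, where 0.137% of all genes did, 0 passed by edgeR (0.178% of all genes) or DESeq2 (3.51%), and 1 passed at an unadjusted p below 0.05 (13.8% of all genes), Lpar1. Of the 10 genes 3 lay without overlap below Tyro3-/-V1, Lpar1 and the chosen Enpp2 and Lpar3, against 18.2% of all genes in either direction. All 3 phosphatases overlapped between the mutant groups, with log2 fold changes of −0.60 for Plpp1, −0.46 for Plpp2 and 0.19 for Plpp3 and limma adjusted p from 0.386 to 0.592.

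Loss of the integrin in the second table gave no call either. In Itgb5-/- against WT129, 0 of 10 genes passed the limma test, where 0.0375% of 18653 genes did, 0 passed at an unadjusted p below 0.05 (8.28% of all genes), and 0 passed by edgeR (0.0268%) or DESeq2 (2.30%). Enpp2 had 46980, 41554 and 36987 normalized counts in Itgb5-/- and 44191, 32712 and 33834 in WT129, which overlapped (log2 fold change 0.19, 95% interval −0.22 to 0.60, limma adjusted p = 0.795). Lpar3 had 201, 179 and 205 in Itgb5-/-, all above the 174, 126 and 112 in WT129, with a log2 fold change of 0.53 and an interval of −0.01 to 1.06 (adjusted p = 0.606). It was the only one of the 10 without overlap, against 15.4% of all genes. Rod markers summed to 2600 to 5240 RPM in Itgb5-/- and 7738 to 19342 in WT129. At an unadjusted p below 0.05 by limma, 10 of 10 were lower, 0 passing after adjustment. Inner retinal neuron markers had 10 of 10 negative log2 fold changes and RPE markers 11 of 13 positive, 0 passing the limma test. The part of these cells in the Lpar3 difference was not tested. Lpar5 had 109, 168 and 177 in Itgb5-/- and 132, 42.1 and 89.6 in WT129, the largest fitted change of the 10 there, at 0.89 with an interval of −0.12 to 1.90 (adjusted p = 0.639).

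The remaining 7 genes overlapped between Itgb5-/- and WT129. Lpar1 had 3062, 1568 and 2128 normalized counts in Itgb5-/- and 1973, 1517 and 2264 in WT129, and Plpp1 had 932, 774 and 743 in Itgb5-/- and 665, 645 and 799 in WT129. Plpp3 was highest in 1 library of Itgb5-/-, with 2294, 1252 and 1364 in Itgb5-/- against 1373, 1612 and 1876 in WT129. That library, replicate 1, also had the highest endothelial marker sum of the second table, 555 RPM against 292 to 378 in the others of that table. Its fibroblast and mural marker sum was the highest too, 1580 RPM against 640 to 1095. So were its sums of melanocyte, microglia and macrophage, Muller glia and RPE markers. The part of those cells in the Plpp3 value was not tested.

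The control strains differed in several of these genes, in levels that come from tables normalized separately and carry no test. Per length, WT129 had 0.425 times the C57BL/6 mean of Enpp2, 0.602 times that of Lpar2 and 0.520 times that of Lpar4, and 3.10 times that of Lpar1, 1.70 times that of Lpar6 and 1.51 times that of Plpp1, each without overlap between the strains. Lpar3, Lpar5, Plpp2 and Plpp3 overlapped, at 1.10, 0.675, 0.998 and 1.06 times. Lpar1 stood at 22.4 ± 7.9 RPKM in Itgb5-/- and 19.5 ± 3.8 in WT129 (SD, n = 3 each), among the phosphatases in the order of levels, and at 6.42 ± 0.15 in the libraries labelled double knockout, 7.91 ± 1.42 in Tyro3-/-V1 and 6.29 ± 0.69 in C57BL/6, below every phosphatase. As a share of the summed RPE markers, Enpp2 was 6.21% to 7.07% in Itgb5-/- and 5.45% to 7.83% in WT129, all below the 9.14% to 16.7% of the libraries of the first table. Strain and table cannot be told apart in this difference.

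**Figure D5:**
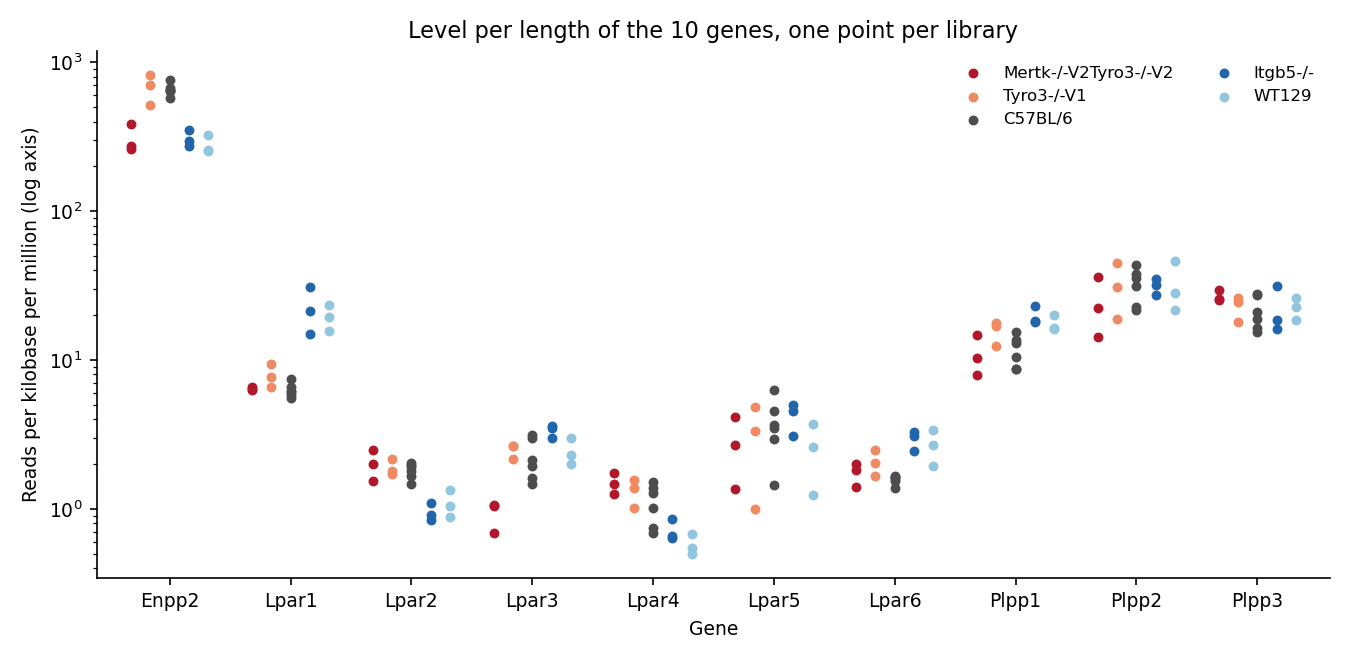
Level per length of the 10 genes in RPKM on a log axis, one point per library, groups from left to right within each gene in the order of the legend. Enpp2 lies at 252 to 825, Plpp1 to Plpp3 at 7.98 to 46.4, and the receptors other than Lpar1 at 6.32 or less.

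The other genes of LPA metabolism and signalling were taken as 8 lists of 94 genes in all, covering other lipases and phosphodiesterases that can make LPA, lysophosphatidylcholine handling, LPA made inside cells, other lipid phosphatases, other proposed receptors, G proteins with their exchange factors and kinases, targets of the transcription factors SRF and YAP, and the related lipid sphingosine 1-phosphate. Of these, 87 were measured in each table and 0 passed the limma or edgeR test in any of the 4 comparisons. At an unadjusted p below 0.05, limma had 13 higher and 13 lower in the libraries labelled double knockout against C57BL/6, 5 and 2 in Tyro3-/-V1 against C57BL/6, 5 and 7 between the mutant groups, and 4 and 3 in Itgb5-/- against WT129. Taken in either direction, these were 29.9%, 8.05%, 13.8% and 8.05% of the list genes, against 21.9%, 6.71%, 13.8% and 8.28% of all genes. DESeq2 called 7 higher and 3 lower, 1 and 1, 2 and 2, and 0 and 0 in the same order of comparisons. These were 11.5%, 2.30%, 4.60% and 0% of the list genes, where DESeq2 called 8.75%, 0.665%, 3.51% and 2.30% of all genes.

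The 10 list genes that DESeq2 alone called in the libraries labelled double knockout against C57BL/6 were a share near that of all genes, and 4 of them are described here, named after their values were seen. Their C57BL/6 means are over all 6 libraries, while the fitted differences compare with the marked ones only. The printed means therefore need not give the fitted size, and a split by the mark is not given for these genes. The first is Gpam, the mitochondrial glycerol-3-phosphate acyltransferase that makes LPA inside cells. Gpam had 10996 ± 2591 normalized counts in the libraries labelled double knockout and 15184 ± 3040 in C57BL/6 (SD, n = 3 and 6), a limma log2 difference of −0.69 (limma adjusted p = 0.0985; DESeq2 adjusted p = 0.0146). Rock2, a kinase that acts below G12/13-coupled receptors, had 2346 ± 127 in the libraries labelled double knockout and 1888 ± 163 in C57BL/6, at 0.36 (limma adjusted p = 0.0897; DESeq2 adjusted p = 0.0151). Arhgef12, a guanine nucleotide exchange factor of the same route, had 7729 ± 679 in the libraries labelled double knockout and 9360 ± 947 in C57BL/6, at −0.39 (limma adjusted p = 0.0805, DESeq2 adjusted p = 0.000869). DESeq2 called Arhgef12 in Tyro3-/-V1 against C57BL/6 as well, at 8103 ± 344 normalized counts in Tyro3-/-V1 (limma log2 difference −0.32, limma adjusted p = 0.452, DESeq2 adjusted p = 0.0447). S1pr3, a receptor for sphingosine 1-phosphate, had 955 ± 458 in the libraries labelled double knockout and 528 ± 202 in C57BL/6, at 1.26 (limma adjusted p = 0.0934; DESeq2 adjusted p = 0.00438). The list medians against C57BL/6 ran from −0.30 for lysophosphatidylcholine handling to 0.16 for SRF and YAP targets.

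The genes whose values were most like Enpp2 over the 12 libraries of the first table, among 13302 with a mean of at least 50, were Trhde, Sfrp5, Rpe65, Bmp6 and Paqr9, with Pearson correlations of 0.981, 0.974, 0.974, 0.970 and 0.969 on the log2 scale. The libraries share the group difference by which Enpp2 was chosen, and over the 6 libraries of the second table the same correlations were 0.731, 0.613, 0.710, 0.711 and 0.335. On deviations from the means of group and mark, the nearest were Atrnl1, Ganc, Tbc1d13, Chil1 and Psap, at 0.954 to 0.970. Their correlations with Enpp2 over the 6 libraries of the second table were 0.683, 0.045, 0.415, 0.629 and 0.505.

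For Lpar3, the most like were Src, Pmm1, Sema4a, Slco1a5 and Slc9a3r1, at 0.981, 0.966, 0.959, 0.957 and 0.957, and at 0.947, −0.06, 0.563, 0.813 and 0.773 in the second table. Src was among the 5 nearest on deviations too, at 0.935, after Plpp6, Isoc2b, Trib1 and Zc3h15 at 0.937 to 0.978. Plpp6, a phosphatase of the lists above, had the highest of these. In the second table Plpp6, Isoc2b, Trib1 and Zc3h15 correlated with Lpar3 at 0.753, 0.917, 0.952 and 0.181. Enpp2 and Lpar3 correlated with each other at 0.863 over the 12 libraries, at 0.453 on deviations and at 0.752 in the second table. Among the 13302 genes, Lpar3 ranked 142nd in likeness to Enpp2 over the 12 libraries and 2587th on deviations. Both genes were chosen by lower values in the same 3 of those libraries. The values over the 12, for this pair and for the genes most like Lpar3, carry that difference.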

How the data were processed

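The values deposited by the authors are a signal per gene, named normalized counts in their file names. Per the submitters' processing notes, STAR, DESeq2, GRCm38 and mm10 were used; versions, annotation and strand of counting are not given in the sources used here. Dividing each library by its smallest step gave whole reads for 100% of values above 0 (tolerance 0.001 read), with size factors of 0.541 to 1.20. Rows without a gene name, 240 in the first table and at most 0.0203% of a library, were left out; of 3096 such rows in the second, 3061 took a name through their Ensembl ID. Gene positions and merged exon lengths came from GENCODE M21.

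Each table was fitted by itself with limma 3.58.1 (R 4.3.3; mean-variance trend, robust) on log2(normalized count + 1), for genes with at least 10 in at least 3 libraries (19711 and 18653). Fold changes are on that scale, which understates changes of low genes. The first model had terms for group and for the mark 23, and so compares mutants with the 3 marked C57BL/6 libraries, with 8 residual degrees of freedom; the second had group only, with 4. Tests were two-sided with Benjamini-Hochberg adjustment over all genes and a threshold of 0.05. Count tests with DESeq2 1.42.0 and edgeR 4.0.16 on these whole reads, other pseudocounts, filters and sets of libraries, and each library left out in turn, were alternatives. The steps were tested on simulated data. P-values measure the spread between these libraries. The precision of low genes is limited by their reads.

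The genes and lists were chosen with earlier results of these data known. The genes named are the 10 members, list genes past the threshold (none), and for Enpp2 and Lpar3 the 5 genes of highest correlation on each of 2 scales. Outside this rule, 4 list genes called by DESeq2 alone and the markers Rpe65, C1qc and Ctss were named after their values were seen.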

Additional observations from a re-analysis of the deposited data

Results flagged for a closer look

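Lpar3 had log2 fold changes of opposite sign under different mutations. In the libraries labelled double knockout its log2 fold change was −1.69 against C57BL/6, with all 3 libraries below all 6 controls, and in Itgb5-/- it was 0.53 against WT129, with all 3 libraries above all 3 controls (limma adjusted p = 0.606). The difference between the 2 effects was not tested, the tables were normalized separately, and Lpar3 was chosen by the first of these values. For none of the 10 genes did a single one of the 6 C57BL/6 libraries stand apart from the others by Dixon's criterion.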

How the results depend on the processing

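Over 780 alternative values of the 10 genes' log2 fold changes, 739 kept their sign and their side of the threshold where one was tested, 36 turned sign and 5 newly passed. The 780 include values that could not differ from the main fit. In the first table, leaving out an unmarked C57BL/6 library, or a library of a group not compared, does not change a fitted log2 fold change. The 739 are therefore not independent checks. Enpp2 and Lpar3 in the libraries labelled double knockout kept their sign in all, at −1.43 to −1.13 and −1.89 to −1.27 against C57BL/6. Both were chosen by their lower values in these same libraries, so the kept sign is a description and not support.

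Those newly passing, all against C57BL/6 in the libraries labelled double knockout, were Lpar4 by DESeq2 (adjusted p = 0.0205), and Plpp3 by DESeq2 (0.00903) and without Tyro3-/-V1 replicate 1 (0.0491). With replicate number as a block, Plpp2 (limma adjusted p = 0.0497) and Plpp3 (0.0392) passed too. Deviations of same-numbered libraries correlated at 0.28 to 0.559 for replicates 1 and 3 and −0.214 to 0.0557 for replicate 2 in the first table, and at −0.116 to 0.0336 in the second. The main fit did not pair the libraries by number, since not every correlation was over 0.1 and the labels do not say what a number marks. This choice does not show that same-numbered libraries shared no effect. The block gave 716 calls over all genes for the libraries labelled double knockout against C57BL/6 and 0 for Itgb5-/- against WT129.

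Counts of genes called depended on the setting; the cause was not tested. For the libraries labelled double knockout against C57BL/6 (103 called), DESeq2 gave 1725, no term for the mark 53, marked libraries only 11, the compared groups only 29, and leaving out the 2 end libraries, an alternative chosen after seeing the data, 13. Leaving out 1 library gave 0 to 142, with 0 without C57BL/6 replicate 1 or 2. For Tyro3-/-V1 against C57BL/6 (9), DESeq2 gave 131, leaving out the end libraries 5, and leaving out 1 library 3 to 9. For the libraries labelled double knockout against Tyro3-/-V1 (27), no filter gave 41, DESeq2 692, marked libraries only 5, the compared groups only 2, leaving out the end libraries 11, and leaving out 1 library 2 to 35. For Itgb5-/- against WT129 (7), no filter gave 19, DESeq2 429, and leaving out 1 library 0 to 10.

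Signs that turned were of small, uncalled changes. Against C57BL/6 in the libraries labelled double knockout, Lpar2 was 0.067 with no term for the mark and 0.10 without the end libraries, and Plpp1 was 0.27 without the end libraries. In Tyro3-/-V1 against C57BL/6, with no term for the mark, Enpp2 was 0.038, Lpar2 0.069 and Lpar3 0.22. Between the mutant groups, Lpar2 was 0.014 with TMM factors, 0.035 by edgeR, 0.017 by DESeq2 and 0.20 without the end libraries, where Lpar5 was 0.35. For Itgb5-/- against WT129, Plpp3 was 0.0059 by edgeR and 0.0027 by DESeq2. With 1 library left out, the log2 fold changes ranged over both signs for Lpar2 (−0.32 to 0.058), Lpar6 (−0.087 to 0.20) and Plpp1 (−0.45 to 0.038) in the libraries labelled double knockout against C57BL/6 and for Enpp2 (−0.19 to 0.13) in Tyro3-/-V1 against C57BL/6. The same held between the mutant groups for Lpar2 (−0.18 to 0.20), Lpar4 (−0.045 to 0.25) and Lpar5 (−0.76 to 0.39), and in Itgb5-/- against WT129 for Lpar1 (−0.051 to 0.43), Lpar2 (−0.29 to 0.020), Lpar6 (−0.0093 to 0.39), Plpp2 (−0.16 to 0.41) and Plpp3 (−0.30 to 0.14).

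Enpp2 stood above the next highest of the 10 genes on every scale tried. Per length the mean ratio was 10.5 in the libraries labelled double knockout, 21.9 in Tyro3-/-V1, 19.8 in C57BL/6, 9.40 in Itgb5-/- and 8.61 in WT129. Not divided by length, or in the authors' normalized counts, it was 21.1, 50.03, 53.4, 19.7 and 19.2 in the same order. The next highest gene was a phosphatase or, in libraries of the second table, Lpar1, and the merged exons of Enpp2 are longer than those of each.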
